A study of Drosophila melanogaster with 3 samples.

Results

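Summits of Ultraspiracle (USP) binding that lay on alternating G and A tracts made up 1032 of the 11195 summits (9.22%) of the IDR-thresholded peak list from Drosophila melanogaster larvae at the wandering stage of the third instar. A summit was a member when a run of 7 or more bases that strictly alternated G and A, starting with G, lay wholly within 100 bp of it on either strand, that is, when GAGAGAG could be read in the 201 bp window. Membership used the genome sequence and the position of the summit, and no measured level. The strain stably carried usp fused at its C terminus to eGFP, males and females were pooled, whole animals were used, and chromatin sheared by sonication was precipitated with an antibody to GFP. There were 3 biological replicates of this 1 group and no second condition, and it is not stated if the fusion gene was an added copy. Whole animals mix all larval tissues, so a summit does not tell in which cells USP was bound. The authors deposited 1 peak list per replicate, 1 list of pooled data and the IDR-thresholded list, in which the irreproducible discovery rate (IDR) sets the length. The signal, the caller's score of each peak, was used only to rank peaks within a list, and the number of reads behind it is unknown. A mean ± SD was taken over the lists of the 3 replicates, each cut to its 11195 peaks of highest signal.

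USP, the insect counterpart of RXR, forms together with EcR the receptor of the steroid hormone ecdysone, which drives molting and metamorphosis. The receptor binds palindromic response elements (EcREs) built from half-sites related to AGGTCA. Alternating G and A is the binding sequence of the GAGA factor, encoded by Trithorax-like (Trl), which opens nucleosomes at promoters and enhancers together with chromatin remodelers and is best known from heat shock and homeotic genes. Pipsqueak (psq) and the dosage compensation adaptor CLAMP also bind GA repeats. None of these proteins was assayed here, so a tract is a stretch of letters and not a site shown to be occupied.

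The windows of the strongest tract summits show what the rule selects. Each of the following is printed 5′ to 3′ in dm6 coordinates, with the alternating runs in capitals, so that CTCTCTC is a run read from the opposite strand. The summit in vri, a gene for a bZIP repressor known from the circadian clock, has its window at chr2L:5293025-5293225, minus strand, and its run directly follows a GT repeat. The window in an intron of Hr4, a nuclear receptor gene, is chrX:1948102-1948302, plus strand. The window in an intron of Eip74EF, an early ETS-domain gene, is chr3L:17590616-17590816, minus strand. The window 252 bp upstream of a start site of br, the Broad-Complex gene, is chrX:1610160-1610360, minus strand. At the promoter summit of Eip75B, the gene of the nuclear receptor E75, only the 30 bases at the runs are shown, chr3L:17971296-17971325, minus strand.
vri: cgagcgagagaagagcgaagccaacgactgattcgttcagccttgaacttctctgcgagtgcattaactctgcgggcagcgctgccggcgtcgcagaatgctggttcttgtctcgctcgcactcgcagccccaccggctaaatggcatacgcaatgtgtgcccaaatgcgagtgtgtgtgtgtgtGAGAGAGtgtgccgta
Hr4: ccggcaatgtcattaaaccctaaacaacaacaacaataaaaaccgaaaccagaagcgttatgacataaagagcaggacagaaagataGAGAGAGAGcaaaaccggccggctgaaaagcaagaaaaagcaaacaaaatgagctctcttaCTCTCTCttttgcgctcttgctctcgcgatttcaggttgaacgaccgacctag
Eip74EF: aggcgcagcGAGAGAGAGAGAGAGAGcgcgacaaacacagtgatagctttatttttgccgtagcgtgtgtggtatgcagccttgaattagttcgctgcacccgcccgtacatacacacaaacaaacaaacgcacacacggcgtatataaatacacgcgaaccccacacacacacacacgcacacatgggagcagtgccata
br: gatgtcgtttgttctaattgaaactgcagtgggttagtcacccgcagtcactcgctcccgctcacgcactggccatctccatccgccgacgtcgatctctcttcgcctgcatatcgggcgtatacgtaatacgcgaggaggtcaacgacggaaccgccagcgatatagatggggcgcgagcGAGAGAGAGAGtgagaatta
Eip75B: ggagtggaggccGAGAGAGcGAGAGAGcga

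Other windows were at genes long tied to the GAGA factor. They are shown because Hsp26 and Hsp27 are classical genes of that factor and Trl encodes it. The stretch upstream of the small heat shock gene Hsp26, chr3L:9377428-9377569, is given on the plus strand, and the gene reads the other way, so its start lies just left of the first base. The stretch at the promoter of Hsp27 is chr3L:9383630-9383830, minus strand, and the intronic stretch of Trl itself is chr3L:14756499-14756699, minus strand. Capitals again mark the alternating runs.
Hsp26: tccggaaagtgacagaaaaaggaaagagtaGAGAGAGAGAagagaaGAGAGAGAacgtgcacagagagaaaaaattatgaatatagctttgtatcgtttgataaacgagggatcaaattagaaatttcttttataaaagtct
Hsp27: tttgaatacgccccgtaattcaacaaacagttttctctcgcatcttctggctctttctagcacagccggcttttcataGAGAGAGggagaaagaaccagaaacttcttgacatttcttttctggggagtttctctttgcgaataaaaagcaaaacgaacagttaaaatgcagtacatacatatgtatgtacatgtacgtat
Trl: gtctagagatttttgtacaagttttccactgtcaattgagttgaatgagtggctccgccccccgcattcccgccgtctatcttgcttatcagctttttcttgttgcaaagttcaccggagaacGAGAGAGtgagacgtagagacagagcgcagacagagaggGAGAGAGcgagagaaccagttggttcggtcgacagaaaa

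Runs varied widely in length, and the longest show the other end of that range. The intergenic window whose nearest start site is that of Dip-B, a dipeptidase gene, is chr3R:13794657-13794857, plus strand, with a run of 31 bases. The window in an intron of MESR3 is chr2L:18629259-18629459, minus strand, with a run of 27 bases and a second, shorter one. At a summit in the 3′ UTR of the calcineurin gene CanA-14F, whose nearest coding start site is that of Pp2B-14D, 30 bases are given, chrX:16562477-16562506, plus strand, with a run of 28 bases.
Dip-B: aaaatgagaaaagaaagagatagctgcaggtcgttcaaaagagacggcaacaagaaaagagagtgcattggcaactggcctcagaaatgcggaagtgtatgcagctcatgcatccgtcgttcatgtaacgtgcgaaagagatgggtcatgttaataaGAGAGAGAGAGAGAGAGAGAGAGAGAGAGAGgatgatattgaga
MESR3: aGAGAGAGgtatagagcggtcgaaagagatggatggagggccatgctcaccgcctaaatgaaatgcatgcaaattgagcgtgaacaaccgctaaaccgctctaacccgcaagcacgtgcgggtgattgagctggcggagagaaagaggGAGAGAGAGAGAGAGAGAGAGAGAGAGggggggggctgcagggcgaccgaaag
CanA-14F: aGAGAGAGAGAGAGAGAGAGAGAGAGAGAa

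A last set holds both a tract and a match to the EcRE palindrome with up to 1 mismatch, and capitals mark both. The window 3466 bp upstream of the nearest coding start site, that of the Krüppel-like gene Kr-h1, is chr2L:6079037-6079237, plus strand. The window in an intron of Eip75B is chr3L:17972451-17972651, plus strand. The window in another intron position of Hr4 is chrX:1943376-1943576, minus strand.
Kr-h1: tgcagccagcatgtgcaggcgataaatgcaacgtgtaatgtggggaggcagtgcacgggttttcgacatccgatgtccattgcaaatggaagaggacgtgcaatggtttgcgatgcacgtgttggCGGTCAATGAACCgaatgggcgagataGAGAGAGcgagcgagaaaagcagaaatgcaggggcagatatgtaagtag
Eip75B: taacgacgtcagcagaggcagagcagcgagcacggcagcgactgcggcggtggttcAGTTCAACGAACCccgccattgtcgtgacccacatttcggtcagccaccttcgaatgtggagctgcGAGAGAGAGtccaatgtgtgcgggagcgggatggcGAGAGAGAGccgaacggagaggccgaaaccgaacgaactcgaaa
Hr4: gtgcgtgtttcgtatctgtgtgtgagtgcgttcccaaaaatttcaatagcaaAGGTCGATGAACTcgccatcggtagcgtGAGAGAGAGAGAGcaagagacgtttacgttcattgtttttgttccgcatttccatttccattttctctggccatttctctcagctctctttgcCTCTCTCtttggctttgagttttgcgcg

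Tracts were more frequent under USP summits than beside them. The share of 9.22% at summits (exact binomial 95% interval 8.69 to 9.77) compared with 3.97% of the windows centred 1000 bp to the left and right and with 2.45% of all windows of the same length on the 6 chromosome arms, which made the share at summits 3.77 times that of the genome. The strongest summits of replicate 1 held a tract in 8.77% of cases, those of replicate 2 in 9.81% and those of replicate 3 in 9.12%. Over the replicates the share at summits was 9.23% ± 0.527 and that of their flanking windows 3.98% ± 0.00774 (SD, n = 3 each), a difference of 5.25 ± 0.521 percentage points that was above 0 in 3 of 3 replicates (exact two-sided sign-flip permutation p = 0.25, the smallest that 3 replicates allow). With 3 replicates this test cannot pass 0.05 in any comparison. The binomial intervals cover counting error only and take summits as independent. Another simple repeat, the alternating C and A tract CACACAC, lay at 1591 summits (14.2%) against 6.21% of genome windows, a ratio of 2.29.

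The members lay at separate positions in the genome. Their windows held 1267 runs that were distinct by position, and 0 of these were shared between members. Likeness of sequence between the windows was not compared. They lay in 974 peak intervals, 828 had 1 run, 176 had 2 runs and 28 had 3 or more, with at most 4. Counted inside the window, the longest run of a member had a median of 8 bases and reached 33 bases, in an intron of Acsl, a fatty acid-activating enzyme gene. That run read G and A on the plus strand at 503 members and on the minus strand at 529.

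Tract summits were stronger than the others. Their signal ran from 366 to 42659 with a median of 868, against a median of 735 at other summits. On the percentile scale of the list, where 100 is the strongest peak, tract summits had a median of 57.8 and other summits 49.2, a difference of 8.54. The difference was 7.84 in replicate 1, 9.38 in replicate 2 and 9.06 in replicate 3 (8.76 ± 0.810, SD, n = 3, exact sign-flip permutation p = 0.25). Of the 100 strongest summits 23 held a tract (exact 95% interval 15.2 to 32.5%), and 19, 27 and 20 did in replicates 1, 2 and 3. Among the 1000 strongest there were 157. The share was 14.4% in the strongest decile and 6.79% in the weakest, which was still above the flanking windows.

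**Figure D1:**
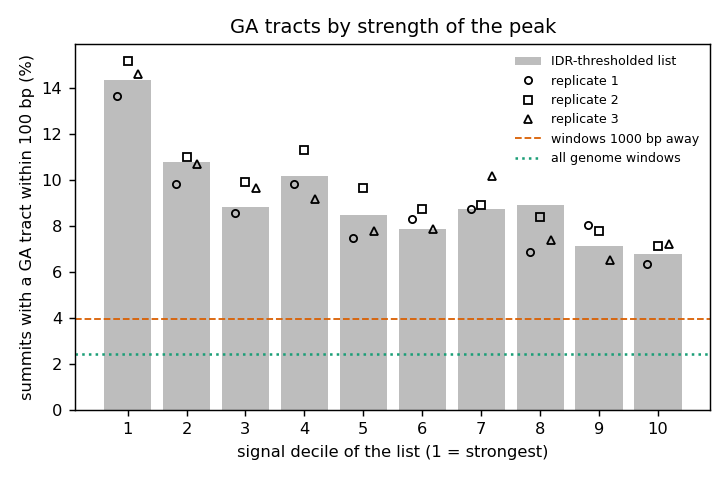
Share of summits with a GA tract within 100 bp (percent, y axis) by signal decile (x axis, 1 is the strongest), with bars for the IDR-thresholded list and open symbols for each replicate's own list. The dashed line marks windows 1000 bp away (3.97%) and the dotted line all genome windows (2.45%), and the strongest decile stands highest in the IDR-thresholded list (14.4%) and in every replicate.

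The difference in strength was seen in most kinds of places. It was 6.81 percentile points among promoter summits, 9.91 among intron summits and 20.5 among intergenic summits, and over the replicates 7.47 ± 1.28, 9.65 ± 0.254 and 22.8 ± 5.39 (SD, n = 3). On the autosomes it was 9.67 (9.79 ± 0.243 over the replicates). On the X chromosome it was 5.19, with -0.47, 8.73 and 2.92 in replicates 1, 2 and 3, so replicate 1 lay on the other side of 0. Tract windows were richer in G and C, with a median of 48.3% against 44.3% at other summits. Within windows of low, middle and high GC content, cut at 41.3% and 48.3%, the difference was 2.74, 6.60 and 7.94 percentile points, and over the replicates 6.45 ± 1.41, 4.10 ± 2.08 and 9.57 ± 1.62 (SD, n = 3), so the order of the 3 differed between the IDR-thresholded list and the replicates. Intervals with several summits held 43.1% of the tract summits and 35.3% of the others, and among summits alone in their interval the difference was 4.79 (5.16 ± 1.15 over the replicates). The part that GC content or neighbouring peaks have in the remaining difference was not tested. Such single intervals had a median width of 519 bp at tract summits and 473 bp at other summits (438 ± 17.7 and 400 ± 16.5 over the replicates, SD, n = 3).

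The strongest tract summits lay at regulators of the ecdysone response and at a few other genes. The summit in vri ranked 3rd in the IDR-thresholded list and had ranks 2, 3 and 3 in replicates 1, 2 and 3. An intronic summit of atos followed at rank 6, with ranks 6, 7 and 7. The promoter summit of Eip75B ranked 10, with ranks 7, 15 and 8. The summit upstream of Kr-h1 ranked 16, and its ranks in replicates 1, 2 and 3 were 17, 8 and 18. The second Eip75B summit, printed above with its EcRE, ranked 19 (19, 23 and 19), and an intronic summit of CG5953 ranked 20 (18, 24 and 16). The Hr4 summit with its run 9 bp away ranked 26 (29, 20 and 28), and the Eip74EF summit with a run of 17 bases ranked 28 (32, 26 and 24). Among these 8 summits the nearest run was centred from 9 bp (Hr4) to 96 bp (atos) away. These 8 kept high ranks in every replicate, of which only replicate 1 was not a parent of the IDR-thresholded list.

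The rest of the 15 strongest were of the same mixed kind. A promoter summit of Alh, a chromatin protein gene, ranked 30, and an intergenic summit 2929 bp upstream of the gustatory receptor gene Gr93a ranked 31. A further Eip75B summit with a run of 14 bases ranked 40, an intronic one of eff, a ubiquitin-conjugating enzyme gene, ranked 43, and an intergenic one 635 bp upstream of CG43389 ranked 45. The br summit ranked 51 and the other Hr4 summit 55. In all 15 cases each replicate held a summit within 100 bp among its 75 strongest peaks. In 9 of the 15 the longest run had only the minimum of 7 bases inside the window, among them atos, whose run went on past the window's edge.

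**Figure D2:**
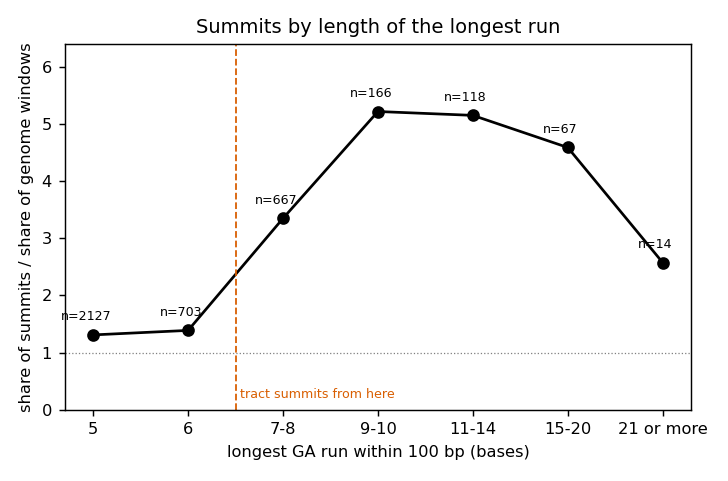
Share of summits divided by the share of genome windows (y axis) for each class of longest GA run within 100 bp (x axis, bases), with the number of summits beside each point. The ratio is 1.31 and 1.39 for runs of 5 and 6 bases, left of the dashed line at which membership begins, and 3.35 to 5.22 for runs of 7 to 20 bases.

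Frequency relative to the genome changed between runs of 6 and 7 bases. A longest run of 5 bases was 1.31 times and one of 6 bases 1.39 times as frequent at summits as in genome windows. For 7 to 8 bases the ratio was 3.35, for 9 to 10 bases 5.22, for 11 to 14 bases 5.15 and for 15 to 20 bases 4.59. For 21 bases or more it was 2.58, on 14 summits. Strength did not follow length: the median percentile was 58.2 at 7 to 8 bases, 56.9 at 9 to 10, 61.7 at 11 to 14, 55.6 at 15 to 20 and 55.5 at 21 or more. By number of runs the medians were 58.1 for 1, 57.4 for 2 and 51.6 for 3 or more, the last on 28 summits. At the edge of the rule, the 507 summits with a longest run of 7 bases had a median percentile of 58.7 and the 703 with 6 bases 51.0. The 201 summits whose nearest run ended in the outermost 20 bp of the window had a median percentile of 60.8, and the 197 with the run up to 20 bp beyond the window had 62.7.

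The summits with the longest runs were not among the strongest. The Acsl summit with 33 bases ranked 5233, the one in CanA-14F ranked 7451 and the one in MESR3 ranked 3189. The intergenic one, 11992 bp from the start site of Dip-B, ranked 4725. An intronic summit of Mnt, a Max-binding repressor gene, had a run of 27 bases and ranked 11094; replicates 2 and 3 had no summit within 100 bp of it among their strongest. Intronic summits of fry, br and glec carried runs of 26, 25 and 23 bases at ranks 1730, 1999 and 1465. A summit within kay, the fly Fos gene, and a promoter summit of RhoGDI each carried 23 bases inside the window, at ranks 5593 and 6324. The kay summit was of the promoter class but lay 1770 bp from the nearest coding start site. The RhoGDI run went on past the window's edge. The kay summit was missing from the strongest peaks of replicate 2.

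Around the summits the tracts formed a broad plateau and not a central peak. Runs numbered 47.0 per 1000 summits and 100 bp of distance within 25 bp of the summit, 52.5 at 25 to 50 bp, 65.6 at 50 to 100 bp, 64.0 at 100 to 150 bp, 42.6 at 150 to 250 bp and 24.5 at 250 to 500 bp. Over the replicates the innermost zone had 49.4 ± 4.66 and the zone of 50 to 100 bp 63.7 ± 2.94 (SD, n = 3). The nearest run was centred at a median of 51.8 bp from the summit, and within 25 bp at 24.1% of the members (25.2% ± 0.364 over the replicates), against 29.9% in flanking windows with a tract. EcRE matches were placed otherwise: their median distance was 26.0 bp over 419 summits, 49.9% lay within 25 bp, and the central 20 bp bin held 14.8 times the level of bins beyond 400 bp. For GA tracts that central ratio was 2.35.

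**Figure D3:**
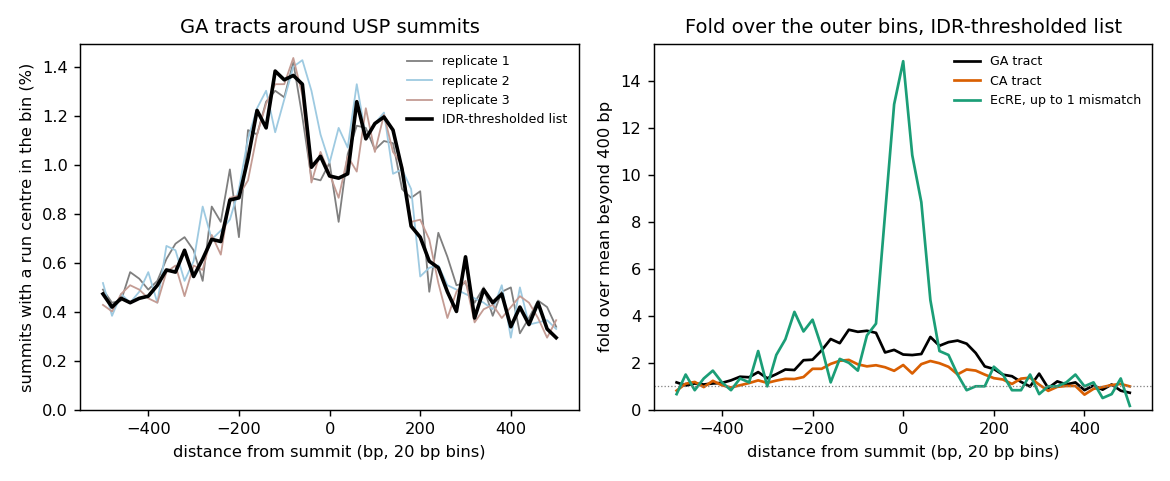
Left, share of summits with the centre of a GA run in each 20 bp bin (percent, y axis) by distance from the summit (bp, x axis), for the IDR-thresholded list (black) and the 3 replicates. Right, the same for GA tracts, CA tracts and EcRE matches in the IDR-thresholded list, divided by the mean beyond 400 bp; the GA curve has a shallow dip at the centre (2.35 times) while the EcRE curve peaks there (14.8 times).

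By position in genes the tract summits resembled the others. Within 500 bp of a transcription start site lay 463 tract summits (44.9%), against 42.9% of other summits, and over the replicates 46.1% ± 0.611 against 42.8% ± 1.11 (SD, n = 3, exact sign-flip permutation p = 0.25). Introns held 439 (42.5%) against 41.9% of the others, a difference whose sign varied between replicates (0.65, -1.17 and 0.03 points). Intergenic stretches held 84 (8.14%) against 9.88%, and the difference over the replicates was -2.42 ± 0.512 points. Coding exons held 6 (0.581%) against 1.87%, and 5′ UTRs 19 (1.84%) against 1.14%. Each class was also set against genome windows of its own kind, and its share was the higher in all 7 classes. A tract lay at 9.61% of promoter summits against 3.42% of promoter windows of the genome, a ratio of 2.81. The shares were 9.34% of summits and 2.72% of windows in introns, a ratio of 3.44. They were 7.72% and 2.18% in intergenic stretches, and 3.06% and 1.06% in coding exons, ratios of 3.55 and 2.89. The ratio was 2.88 in 5′ UTRs, 5.94 in noncoding exons, with 15 tract summits, and 1.44 in 3′ UTRs, with 6. The median distance to a coding start site was 764 bp at tract summits and 1010 bp at other summits.

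At promoters the runs lay more often upstream of the start site than downstream. Of 463 promoter members, 302 (65.2%) had the run upstream, with a median position of -68 bp, and 145 (31.3%) had it between -150 and -50 bp. The run read G and A on the strand of the gene in 234 (50.5%), so neither orientation prevailed. The same zone was rich in runs at start sites with no summit of the list within 500 bp, which does not show that USP was absent there. From -150 to -51 bp a run lay at 375 of 5438 coding start sites with a summit within 500 bp (6.90%) and at 489 of 13815 without (3.54%), and over the replicates at 6.84% ± 0.461 and 3.58% ± 0.120 (SD, n = 3). From 0 to 99 bp, a zone of the same width, the shares were 2.30% with a summit and 0.919% without. All zones from -500 to 500 bp had the higher share at start sites with a summit.

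**Figure D4:**
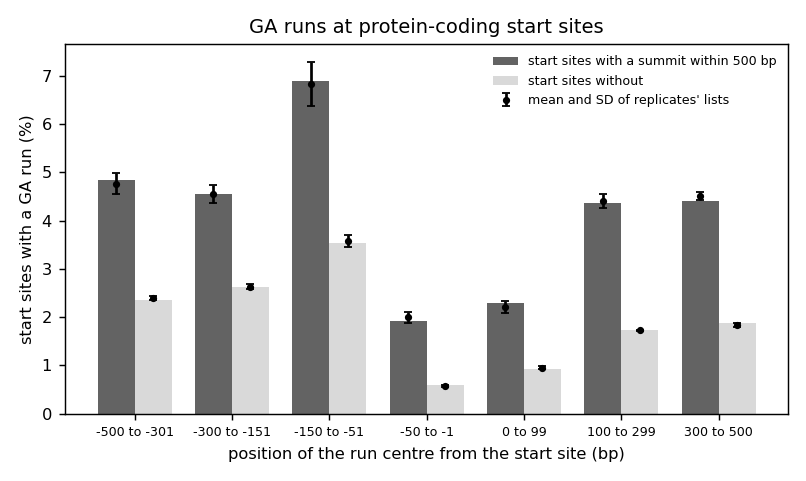
Share of protein-coding start sites with the centre of a GA run in each zone (percent, y axis; zones of unequal width in bp from the start site, x axis), for the 5438 sites with a USP summit within 500 bp (dark bars, left) and the 13815 without (light bars, right); points and bars are mean ± SD of the 3 replicates' lists. Shares with a summit are higher in every zone, and both kinds of site are highest from -150 to -51 bp (6.90% and 3.54%).

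The X chromosome had the largest share of summits on a tract among the arms. It was 214 of 1998 (10.7%), against 9.60% on 3R, 9.29% on 3L, 8.66% on 2R and 7.74% on 2L, and 0 of 10 summits on chromosome 4, which allows a share of up to 30.8% (exact 95% interval). The X also has the most tracts in its sequence, 2.95% of windows, and the ratio of summits to windows was 3.63 there, against 4.18 on 3R, 3.78 on 3L, 3.60 on 2R and 3.49 on 2L. The X held 20.7% of tract summits and 17.6% of other summits, a difference of 3.18 points (3.13 ± 1.09 over the replicates, SD, n = 3, exact sign-flip permutation p = 0.25). It was 0.37 points with tracts counted within 50 bp and 7.04 with runs of 9 or more bases.

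Among other sequences, the CA tract went with the GA tract. It lay at 265 tract summits (25.7%) and at 13% of other summits, and over the replicates at 24.6% ± 1.60 and 13.2% ± 0.458, a difference of 11.4 ± 2.05 points (SD, n = 3, exact sign-flip permutation p = 0.25, adjusted p = 0.309 over 21 motifs by Benjamini-Hochberg, the value for every motif given here). In flanking windows with a GA tract the CA tract was found in 16.2%. Only 25 of the 265 had the 2 runs within 2 bases of each other, as at vri, and the median gap was 41 bp. Summits with both tracts had a median percentile of 51.5 (53.6 ± 3.09 over the replicates), those with the GA tract alone 59.9 (59.6 ± 0.724), those with the CA tract alone 54.3 (52.5 ± 1.11) and those with neither 48.6 (48.8 ± 0.129).

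Several other motifs were less frequent at tract summits than at other summits. The TATA box (TATAAA) lay at 11.4% of tract summits and 19.9% of other summits, with 21.6% in genome windows. The GATA motif (AGATAAG or TGATAAG), read by GATA factors, lay at 8.33% against 12.3%, and at 4.83% of genome windows. The DRE of the factor DREF (ATCGAT with A or T on both sides) lay at 1.65% against 4.08%, with 2.28% in genome windows. The AP-1 motif (TGACTCA or TGAGTCA) lay at 2.23% against 3.55%, with 1.59% in the genome. The Polycomb recruiter motif of Pho (GCCAT) lay at 28.3% against 32.3%, below the genome share of 35.3%. All of these were lower at tract summits in 3 of 3 replicates. Flanking windows with a GA tract held the DRE in 1.46%, AP-1 in 2.25% and Pho in 29.7%, close to the shares at tract summits. The TATA box lay in 15.6% of such windows, above the tract summits, and the GATA motif in 6.52%, below them. The tract itself takes up bases of the window and tract windows were richer in GC, and the part of both in the differences was not tested. The E-box CACGTG was higher, at 3.97% against 2.97% (2.42% of genome windows and 3.60% of flanking windows with a GA tract).

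**Figure D5:**
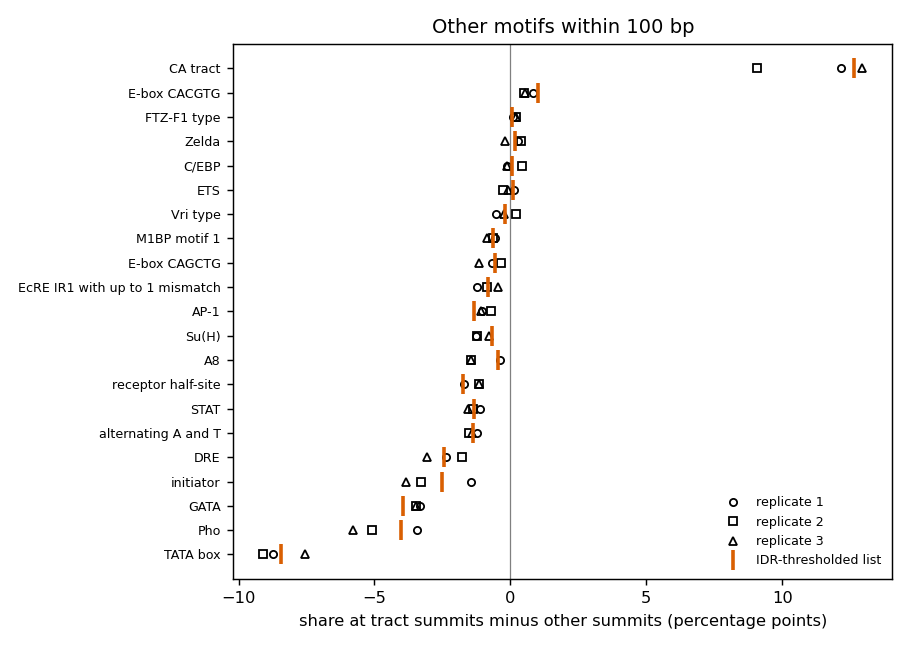
Share of tract summits minus share of other summits with a match within 100 bp (percentage points, x axis) for 21 motifs (y axis), with open symbols for the 3 replicates' own lists and a vertical mark for the IDR-thresholded list. The CA tract stands highest (25.7% against 13%) and the TATA box lowest (11.4% against 19.9%).

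The receptor's own sequences were a little less frequent at tract summits than at other summits. The half-site AGGTCA lay at 48 tract summits (4.65%) and 651 others (6.41%), a difference of -1.34 ± 0.318 points over the replicates, with 5.40% in genome windows. An EcRE match with up to 1 mismatch lay at 31 (3.00%) and 388 (3.82%), a difference of -0.85 ± 0.388 points, with 0.495% in genome windows (SD, n = 3, exact sign-flip permutation p = 0.25 for both). Flanking windows with a GA tract held less of both, the half-site in 3.82% and the EcRE match in 0.674%. The part of GC content and of the bases taken up by the tract was not tested here either. With runs of 6 or more bases the differences in the IDR-thresholded list were -0.16 points for the half-site and -0.13 points for the EcRE. Both kinds of summit thus held the EcRE more often than the genome did, and 97.0% of the tract summits held none.

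The 31 summits with both a tract and an EcRE match had a high median rank, although they ran from rank 16 to rank 7603. Their median percentile was 95.4, against 72.6 for the 388 with an EcRE match and no tract, 56.8 for the 1001 with a tract alone and 48.5 for the 9775 with neither. In replicates 1, 2 and 3 the medians with both were 94.8, 93.6 and 94.1, from 26, 31 and 34 summits, against 73.2, 74.1 and 72.0 with the EcRE alone. The difference was 21 ± 1.37 points (SD, n = 3, exact sign-flip permutation p = 0.25), and this grouping was chosen after the values had been seen. Regulators of the ecdysone response held 10 of the 31 and 20 of the 388. Away from them, that is outside the gene bodies and the 1000 bp upstream, the medians were 95.2 for 21 summits and 71.7 for 368. The 21 include the summit at rank 16, which lies 3466 bp upstream of the regulator gene Kr-h1. Sites of these regulators beyond 1000 bp were thus not removed.

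In these windows the EcRE lay nearer the summit than the tract at 25 of 31, at a median of 28.0 bp against 53.0 bp for the run. The Kr-h1 window printed above had its EcRE 31 bp and its run 55 bp from the summit. The Eip75B and Hr4 windows were of the 6 with the run nearer, at 26 bp against 38 bp and at 14 bp against 42 bp. Summits of Hr3, a nuclear receptor gene, and Blimp-1, a repressor gene, were also in the set, at ranks 133 and 192. Among the 31, only an Eip74EF summit at rank 883 was not found among the strongest of every replicate. It was there in replicate 3, at rank 6567, while the strongest peaks of replicates 1 and 2 had no summit within 100 bp of it.

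Of the genes, 786 of the 4990 protein-coding genes with a summit in the body or up to 1000 bp upstream had a tract summit (15.8%), 586 of them with 1. The highest counts were at long genes with many summits. In these genes, picked by that count, 13.9% (Glut4EF) to 38.9% (pum) of summits lay on a tract, against 9.22% of all summits. Eip75B had 19 tract summits of 82, and 20 in each of the replicates' lists. Eip74EF had 8 of 31 and 7 in each replicate. Hr4 had 7 of 29 (9, 7 and 7), and pum, a translational repressor gene, 7 of 18 (4, 4 and 6). Mur2B, which overlaps br, had 6 of 31. Tlk, a kinase gene, had 6 of 23, kay 6 of 17, tara, a cell cycle and transcription coregulator gene, 6 of 26, and the overlapping genes CG46467 and Glut4EF shared 5 of 36.

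Among 17 regulators of the ecdysone response, all of which had a summit, 12 had a tract summit (70.6%, against 15.8% of all bound genes; 12.7 ± 0.577 over the replicates, SD, n = 3). In all, 53 of their 302 summits (17.5%) lay on a tract, against 9.22% of all summits. The share of genes was not adjusted for the number of summits per gene, of which Eip75B alone had 82. The early genes came first: Eip75B and Eip74EF with the counts above, and br with 4 of 24 summits (5, 4 and 3). Of the receptor genes, Hr4 had 7, Hr3 had 3 of 11, led by a promoter summit at rank 93 (113, 98 and 89), and EcR itself had 2 of 32, led by an intronic one at rank 451 (475, 591 and 433). Hr39, a relative of ftz-f1, had 1 of 5 at rank 8055. The competence factor gene ftz-f1 had 3 of 7, led by rank 2227. The repressor genes vri and Blimp-1 had 2 of 20 and 2 of 11, the transporter gene E23 had 1 of 8 at rank 6739, and the zinc finger gene crol 1 of 5 at rank 1377. Without a tract summit were 5 genes. The 4 of best rank were Kr-h1 with 12 summits, whose tract summit at rank 16 lies beyond the 1000 bp counted, Eip78C with 17, Eip93F with 4 and usp with 2. Tract summits at these 17 genes had a median percentile of 92.1 and their other summits 79.8, a difference of 12.3 (5.78, 12.7 and 13.1 in replicates 1, 2 and 3). Away from them, where the Kr-h1 summit at rank 16 was counted, the difference was 7.74 (7.71 ± 1.06).

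Genes of proteins that bind or act at GA repeats were bound in 9 of 11 cases and had a tract summit in 3, that is 33.3% of the bound genes, against 15.8% of all bound genes, and 7 of their 33 summits (21.2%) lay on a tract, against 9.22% of all summits. Trl had 1 of 4 summits on a tract, in the intron window printed above, at rank 534 (654, 465 and 540). The gene psq had 4 of 18, led by an intronic one at rank 1936 with a run of 10 bases (1728, 1947 and 2086). The gene corto, whose product joins Polycomb and trithorax group complexes, had 2 of 4, led by rank 388 (412, 460 and 352). Summits without a tract were found at 6 genes, the 4 of best rank being lolal, dre4, E(bx) and Nurf-38.

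Of 24 genes whose promoters have long served to study the GAGA factor, 13 had a summit and 8 of these a tract summit (8 ± 1 over the replicates, SD, n = 3). With the 8 of Eip74EF, 15 of their 60 summits (25%) lay on a tract, against 9.22% of all summits, and the 8 genes were 61.5% of those bound, against 15.8% of all bound genes. The Hsp26 summit lay 6.5 bp from the centre of a run of 10 bases and ranked 3888, with ranks 2397, 6938 and 4200. That of Hsp27 ranked 703 (885, 773 and 1009). Hsp22 and the neighbouring Hsp67Bb, which the annotation lists as CG4456, shared a summit at rank 1524 (1644, 1224 and 1962). Ubx, a homeotic gene, had 2 of 3 summits on a tract but only weak ones, led by rank 9717, and 0, 1 and 2 in replicates 1, 2 and 3. The segmentation gene en had 1 of 1 at rank 7837 (8007, 8204 and 7374), and Trl is given above. Of the 5 bound without a tract, the 4 of best rank were Act5C at rank 151, Hsp68, Hsp23 and Hsp83.

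Polycomb target regulators gave similar counts at lower ranks. Of 28, 15 had a summit and 8 of these (53.3%, against 15.8% of all bound genes) a tract summit (7.33 ± 1.15 over the replicates, SD, n = 3). Of their 53 summits 9 (17%) lay on a tract, against 9.22% of all summits. Of the Hox genes 4 had a summit, and Ubx alone had tract summits, 2 of the list's 11. The best were the promoter summits of Su(z)2 at rank 2170 (2381, 2285 and 2192) and of Psc at rank 3018 (3678, 2637 and 3150), neighbouring genes of Polycomb group proteins. The wing selector gene vg followed at rank 4938, absent from the strongest of replicate 1, and pnr, a GATA factor gene, at rank 9153. Tract summits of ph-p at rank 10585 and hth at rank 9476 were each missing from the strongest of 1 replicate. With Ubx and en these make the 8. The 4 of best rank without a tract were ph-d, Antp, Scr and hh.

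Further lists were counted in the same way. Of 9 insulin and growth genes with a summit 4 (44.4%) had a tract summit, with 10 of 48 summits (20.8%) on a tract, and of 13 coregulator genes 5 (38.5%), with 11 of 81 (13.6%), against 15.8% of all bound genes and 9.22% of all summits. Odorant and gustatory receptor genes had 3 bound genes with 3 summits, too few to compare, and 0 of these lay on a tract. That count leaves out the tract summit at rank 31 upstream of Gr93a, which lies beyond the 1000 bp counted. These counts describe lists chosen with results known and carry no test. Shares of genes, here and in the lists above, were not adjusted for the number of summits per gene.

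Tract summits were found again in the replicates about as often as others. Among the strongest peaks of all 3 replicates a summit lay within 100 bp of 778 tract summits (75.4%) and of 70.8% of other summits, with 71.2% of all. The difference turned to 90.7% of tract summits against 91.7% of others when the full replicate lists were searched. In replicate 1, which per the file headers was not a parent of the IDR-thresholded list, the strongest peaks held 87.9% of tract summits and 87.3% of others. In replicates 2 and 3 they held 87.9% and 91.4% of tract summits, against 84.3% and 90.2% of others. Only 7 tract summits were in the strongest of none.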

How the data were processed

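USP ChIP-seq peak lists of 3 biological replicates, a pooled list and an IDR-thresholded list were used as deposited. Per the file headers, each call used alignments to dm6 with those of a control, and the pooled and IDR-thresholded lists derive from replicates 2 and 3. Software for alignment and peak calling, and the threshold on IDR, were not given in the sources used here. Signal as deposited by the authors is the caller's score per peak and was used only to rank peaks within a list. The deposited −log10 q-value was not used to rank. A summit is the start plus the summit offset that the authors deposited. The replicates' lists and the pooled list hold 30000 rows each, a cap, so replicates were cut to their 11195 strongest peaks. Read depth is unknown.

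Sequence came from the RefSeq copy of genome release 6, whose coordinates are those of dm6, and gene models from Ensembl release 115 (BDGP6.54). Coordinates are 1-based. Promoter (within 500 bp of a start site) took priority over exon classes (5′ UTR, CDS, 3′ UTR, then noncoding), and these over intron. Replicates were compared by exact two-sided sign-flip permutation tests, with Benjamini-Hochberg adjustment over 21 motifs. Motifs were read on both strands, and genome shares used windows every 1000 bp. Besides those spelled out in the report, they were the initiator (TCAGTC or TCAGTT), M1BP (GGTCACAC), CAGCTG, Zelda (CAGGTA), ETS (CCGGAAA or CCGGAAG), FTZ-F1 type (AAGGTCA after TC or CC), Su(H) (TGGGAA), C/EBP (TTGCG, A or C, AA), Vri type (TTA, C or T, GTAA), STAT (TTCNNNGAA), a run of 8 A and alternating A and T (ATATATAT). FTZ-F1 type overlaps the half-site. Run finding was tested on simulated data. The genes named are those of the 15 strongest and 10 longest-run tract summits, members of 4 lists, and the 10 genes with most tract summits. Genes beyond this rule were chosen after their values were seen. The counts of 1 further gene list are not reported here. The members and lists were chosen with earlier results of these data known. The start, end, summit offset and signal of each peak were used, and the −log10 q-value was left unused. Python 3.11.15, NumPy 2.4.6, SciPy 1.17.1, pandas 2.3.3 and matplotlib 3.10.9 were used. Alternatives changed the window, the run length, the promoter width, the peaks used and the replicates kept.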

Additional observations from a re-analysis of the deposited data

Results flagged for a closer look

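A signal appeared in peaks that the comparisons did not use. In the pooled list, 885 of the 18805 summits below the IDR-thresholded list had a GA tract within 100 bp (4.71%, exact 95% interval 4.41 to 5.02), above the 2.45% of genome windows and below the 9.22% of the IDR-thresholded summits. In 3 equal parts by rank the share was 5.52%, 4.71% and 3.89%, and the last was close to the 3.97% of windows 1000 bp from IDR-thresholded summits.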

How the results depend on the processing

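The number of tract summits followed the rule: it was 478 within 50 bp, 1837 within 200 bp, 1735 with runs of 6 or more bases, 365 with 9 or more and 590 among the 5597 strongest peaks. The difference between tract and other summits in the share found in all 3 replicates was 4.57 points and turned to -0.96 with full replicate lists and -1.39 among the 5597 strongest, and was not recomputed without a replicate, since it is 1 value over all of them. The promoter difference of 1.99 points turned to -0.33 with runs of 9 or more bases and -0.22 with promoters within 250 bp. The intron difference of 0.62 points turned to -0.79 within 50 bp and -1.76 within 200 bp, and without 1 replicate it ranged from -0.18 to 1.09. The cause of these turns was not tested. The other 91 of the recomputed values kept their direction, and counts of tract summits among them stayed within 1.5 times. These include all alternatives tried for the flanking windows, the signal, the X chromosome, the CA tract, the half-site and the EcRE, but sizes varied. The X difference of 3.18 points ran from 0.37 within 50 bp to 7.04 with runs of 9 or more bases. The CA tract difference of 12.6 ran from 5.21 within 50 bp to 16 within 200 bp. The half-site difference of -1.75 and the EcRE difference of -0.81 were -0.16 and -0.13 with runs of 6 or more bases. The difference from flanking windows of 5.24 was 1.88 with runs of 9 or more bases and 9.11 within 200 bp. No paired analysis was possible because there is 1 group. Depth is unknown, so no statement on missing summits can be tied to read number, and the sign-flip test on 3 replicates cannot give a p below 0.25.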
